A study of Mus musculus with 9 samples.

Results

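The endoplasmic reticulum (ER) chaperone and ATF4 stress genes are 39 mouse genes of protein folding in the ER, of the sensors that respond to unfolded protein, and of the amino acid response driven by ATF4. They were chosen by gene name for these roles, with earlier results of these data known, and all 39 are among the 22068 genes of the deposited count table. They comprise 14 ER chaperones and folding enzymes, 3 genes of ER-associated degradation, 6 sensors and transcription factors, 7 enzymes of amino acid and one-carbon metabolism, 3 amino acid transporters or transporter subunits and 6 stress effectors. Of these, 38 were among the 10100 genes tested. The remaining gene, *Slc7a11*, had a mean of at most 1.51 FPKM (fragments scaled to exon length and library size) in any condition and was left out of the tests, which required that 1 or more conditions have a mean above 2 FPKM.

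RNA-seq was carried out on mouse embryonic fibroblasts (MEFs) of strain C57Bl/6 at passage 2, connective tissue cells cultured from embryos, to compare the response to CRX of a marsupial and of a placental mammal. The cells were electroporated with a plasmid for V5-tagged human *CRX* (eutherian CRX), for V5-tagged opossum *CRX* (metatherian CRX) or for no homeobox gene (control), and each condition gave 3 libraries. All 3 plasmids also carried a puromycin resistance gene, so that the control cells went through the same electroporation and 5 days of puromycin, and the labels give 48 h of recovery after selection, whereas the study's methods place that recovery before selection. CRX is a homeodomain transcription factor of photoreceptors. The study also found it expressed in early embryos of a marsupial, the fat-tailed dunnart, and proposes that marsupial CRX has a role there. Fibroblasts are neither of these settings.

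When unfolded protein builds up in the ER, the sensors IRE1 (*Ern1*), ATF6 (*Atf6*) and PERK (*Eif2ak3*) are activated. IRE1 splices the messenger of *Xbp1*, and XBP1 and ATF6 switch on chaperones and degradation factors through ER stress response elements (ERSE). PERK phosphorylates eIF2alpha, as do sensors of amino acid shortage, and this raises translation of ATF4, which switches on amino acid synthesis, amino acid transport and effectors such as CHOP (*Ddit3*) and TRIB3 through C/EBP-ATF response elements (CARE). Much of the control of these sensors and of ATF4 lies in splicing, translation and protein cleavage, which gene counts do not measure.

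The elements named above are written in the promoters of several of the 39 genes, and the sequences that follow show them for some of the genes described later. The sequences are from RefSeq (GRCm38.p6) and run 5′ to 3′ along the strand of the gene, and capitals mark the fixed letters of an ERSE (CCAAT and CCACG with any 9 bases between them), an ERSE-II (ATTGG and CCACG with any 1 base between them) or a CARE core (TGATGNAA), read on either strand. The *Hspa5*, *Herpud1*, *Asns* and *Slc7a11* stretches are the 30 bases around the match or matches, that of *Trib3* lies at 5 to 31 bases from the start of the window's RefSeq transcript, just inside it, and all others lie upstream of that start. The stretches of *Herpud1* and *Slc7a11* nonetheless lie inside the spans of these genes in the count table's annotation, in which they begin farther upstream.
Hspa5, chr2:34772020-34772049, plus strand: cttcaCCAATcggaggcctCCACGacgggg
Hsp90b1, chr10:86705525-86705664, minus strand: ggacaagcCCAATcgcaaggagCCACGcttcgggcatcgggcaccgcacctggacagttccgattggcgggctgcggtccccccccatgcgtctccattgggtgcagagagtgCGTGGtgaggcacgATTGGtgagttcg
Herpud1, chr8:94386367-94386396, plus strand: ccgggcgctgATTGGgCCACGttggacact
Asns, chr6:7693214-7693243, minus strand: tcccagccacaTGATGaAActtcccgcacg
Pck2, chr14:55540146-55540205, plus strand: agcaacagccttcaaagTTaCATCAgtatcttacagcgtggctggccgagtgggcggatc
Slc7a11, chr3:50443652-50443681, minus strand: gcTGATGcAAacctggagaatTTgCATCAt
Chac1, chr2:119351022-119351101, plus strand: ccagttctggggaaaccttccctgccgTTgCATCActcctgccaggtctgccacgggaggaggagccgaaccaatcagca
Trib3, chr2:152344030-152344056, minus strand: tagctcaggtTTaCATCAgccgggcgg

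RefSeq promoter windows, from 250 bases before to 50 after each start, were at hand for 35 of the 39 genes, as 37 windows, and not for *Hyou1*, *Manf*, *Atf6* and *Slc7a5*. An ERSE was found in 7 of the 12 windows of chaperones and folding enzymes, those of *Hspa5*, *Hsp90b1* (at 2 places), *Calr*, *Canx*, *Pdia6*, *Dnajc3* and *Creld2*, against 0.119% of all 32851 windows. An ERSE-II was found in *Herpud1* and *Dnajb11*, against 0.0365% of all windows. The CARE core was found in 8 of the 37 windows, against 3.97% of all windows, and these were the windows of *Chac1*, *Trib3*, *Nupr1*, *Vldlr*, *Asns*, *Pck2*, *Herpud1* and *Slc7a11* (at 2 places). The CRX core TAATCC was found in 0 of the 37 windows and in 7.06% of all windows, and the unfolded protein response element core TGACGTGG in 0 of the 37 and 0.676% of all. A match describes letters and not a bound site, and the absence of a match says only that these letters are not in the window.

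Each library held 54145701 to 94699657 counts on genes, and the smallest count of any of the 39 genes in any library was 259, so that counting error was small against the spread between libraries. The *Crx* row, which counts reads on the mouse gene, held 0 counts in each control library, 627, 995 and 313 with eutherian CRX and 4, 0 and 0 with metatherian CRX, and it does not measure the opossum gene. All 10 fibroblast markers were detected, but the libraries numbered 3 stood apart. In each condition the SD over genes of the log2 difference between replicate 3 and either other replicate was 0.444 to 0.885, against 0.148 to 0.254 between replicates 1 and 2. The summed marker level was 18368 CPM (counts relative to library totals adjusted by TMM factors) in eutherian CRX replicate 3 and 22574 CPM in metatherian CRX replicate 3, against 37403 to 48309 CPM in the other 7 libraries, control replicate 3 included at 41905 CPM. Among the markers, the collagen gene *Col1a1* was at 1094 and 1037 CPM in these 2 libraries. It was at 4725 to 6488 CPM in the other CRX libraries and at 7739 to 10005 CPM in control. *Col1a2*, another collagen gene, was at 5462 to 6584 CPM in control and at most at 4117 CPM with either CRX. *Fn1* (fibronectin), the most abundant marker in every library, was at 15432 to 17932 CPM in control. It reached 25846 and 28151 CPM in metatherian CRX replicates 1 and 2, and so lifted their sums. The markers did not all move together. *Pdgfra* was at 368 and 382 CPM in the 2 libraries with low sums against 187 to 358 CPM in the other 7, and *Vim* at 4358 and 3884 CPM against 5093 to 5648 CPM. Single markers also differed among the other libraries. *Dcn*, a matrix proteoglycan, was at 63.1 and 43.6 CPM in metatherian CRX replicates 1 and 2 and at 210 CPM in control replicate 3, against 349 to 475 CPM in replicates 1 and 2 of the other conditions. *Lum*, a related one, was at 68.5 and 38.2 CPM in the former and at 107 CPM in the latter, against 376 to 495 CPM. *Thy1*, a surface glycoprotein, was at 129 to 283 CPM in the CRX libraries and at 236 to 700 CPM in control. Macrophage markers summed to 14.9 to 47.7 CPM in the control libraries, to 8.62 to 26.8 CPM in those with eutherian CRX and to 6.78 to 13.8 CPM in those with metatherian CRX, and endothelial, epithelial and skeletal muscle markers to at most 18.7 CPM in any library. In bulk RNA, fewer cells of a type and less RNA per cell cannot be told apart. No source says that replicates came from separate cultures, so that p-values measure the spread between these libraries, which may be technical. Fold changes and adjusted p-values are from edgeR's quasi-likelihood test with the replicate number as a block, adjusted over the 10100 genes, and a gene is said to have passed at an adjusted p under 0.05.

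The 39 genes lay on balance below control with either CRX, but only 1 passed the test. With metatherian CRX the median log2 fold change of the 38 genes tested was -0.24, against -0.01 over all genes tested, and 29 genes had a negative and 9 a positive value. With eutherian CRX the median was -0.25, against 0.00 over all genes, with 35 negative values and 3 positive ones. These medians were nearer 0 without control replicate 3, at -0.11 with metatherian and -0.15 with eutherian CRX, and the latter was -0.16 without eutherian CRX replicate 3. Both comparisons use the same control libraries. Of the 38 genes, 0 passed with metatherian CRX, where 0.0297% of all genes did, and 1, the amino acid transporter *Slc7a5*, was lower with eutherian CRX, where 0.604% of all genes passed. By DESeq2, 7 genes passed with metatherian CRX (*Atf4*, *Chac1*, *Herpud1*, *Mthfd2*, *Sesn2*, *Slc7a5* and *Trib3*), against 9.94% of all genes, and 5 with eutherian CRX (*Asns*, *Atf4*, *Chac1*, *Pck2* and *Slc7a5*), against 3.30%, all of them lower than control. With metatherian CRX, leaving out 1 library moved the edgeR count to 7 without eutherian CRX replicate 3, where 8.83% of all genes passed, and to 2 without metatherian CRX replicate 3, where 4.92% did. With eutherian CRX, the count of 1 became 2 without metatherian CRX replicate 3, where 1.16% of all genes passed, and 0 without any 1 of the other 8 libraries.

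At an unadjusted p under 0.05, 9 of the 38 genes were lower and 0 higher with metatherian CRX, against 10.5% of all genes lower and 9.04% higher. With eutherian CRX 11 were lower and 0 higher, against 6.34% of all genes lower and 2.23% higher. All 3 libraries lay below all 3 control libraries for 12 of the 38 genes with metatherian CRX, where 12.2% of all genes did so, and for 10 of the 38 with eutherian CRX, against 7.79% of all genes. The unadjusted count with metatherian CRX grew from 9 to 16 genes lower without eutherian CRX replicate 3, where the share of all genes grew to 14.0%. That with eutherian CRX went from 11 to 7 without control replicate 1, where 5.96% of all genes were lower, and to 5 without eutherian CRX replicate 1, where 4.17% were.

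**Figure D1:**
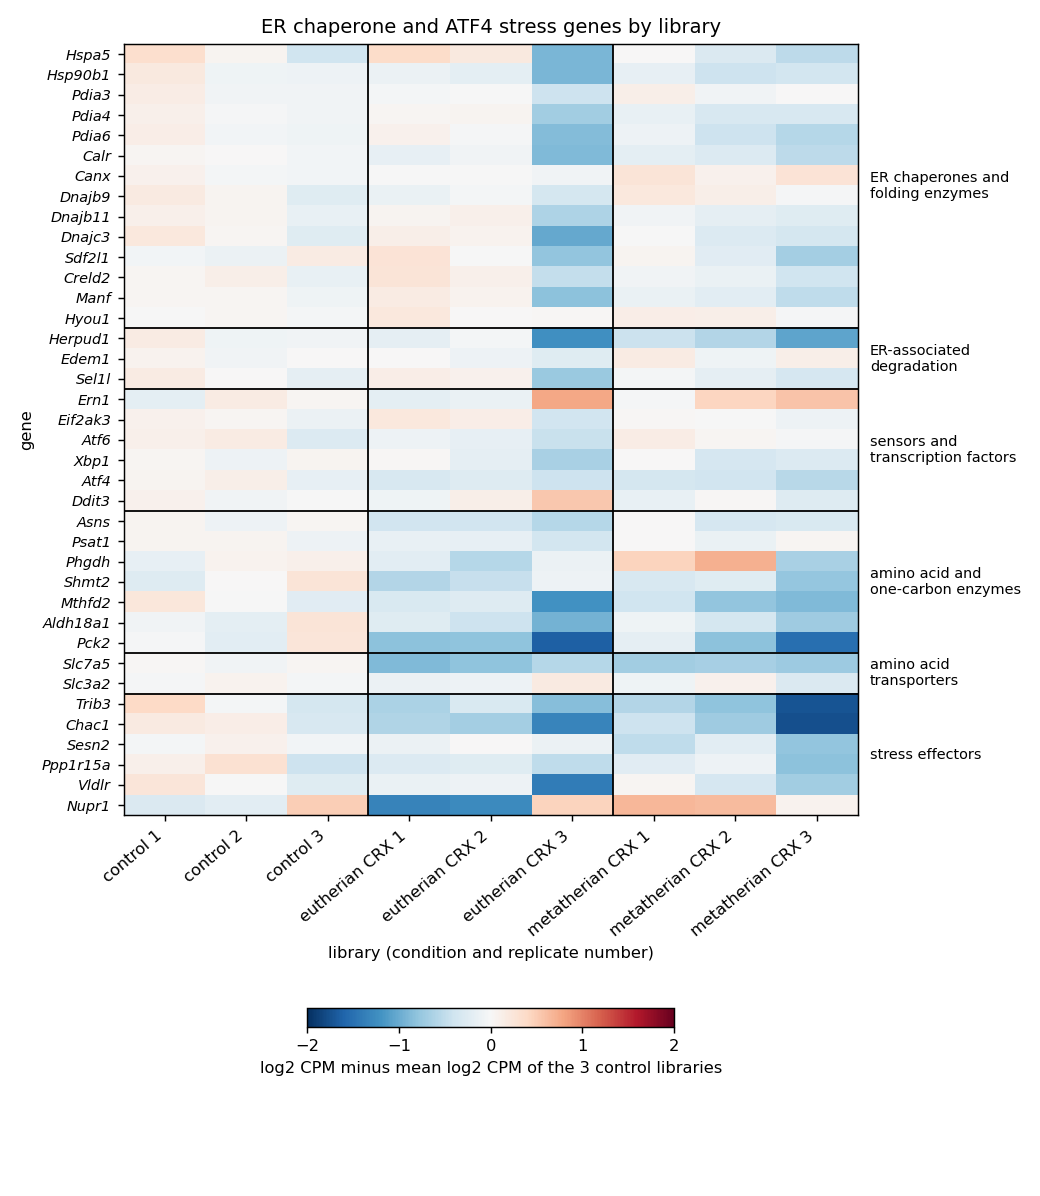
Log2 CPM of each of the 38 genes tested (rows, grouped by role) in each of the 9 libraries (columns), minus the mean of the 3 control libraries, as colour from -2 to 2. Eutherian CRX replicate 3 is blue over most chaperones, while *Atf4*, *Slc7a5* and *Chac1* are blue in all 6 CRX libraries.

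Eutherian CRX replicate 3 held the lowest level among the 9 libraries for 25 of the 38 genes (65.8%), against 22.7% of all genes tested, and for 13 of the 14 chaperones and folding enzymes. Metatherian CRX replicate 3 held the lowest level for a further 9 (23.7%, against 20.7% of all genes). The same 2 libraries had the low fibroblast marker sums. In replicates 1 and 2, which stay in the fit without the libraries numbered 3, *Dcn* and *Lum* were also low with metatherian CRX. *Col1a1* and *Col1a2* were below control there with either CRX. The part of these marker differences in the results for the stress genes was not tested. The calls, and the fold changes of most genes described, are therefore given also without the 3 libraries numbered 3.

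Without those 3 libraries, all 39 genes passed the filters and 10025 genes were tested in 6 libraries. With metatherian CRX 9 genes were then lower at an adjusted p under 0.05, against 11.1% of all genes, and 2 were higher, against 11.0%. With eutherian CRX 4 were lower and 0 higher, against 2.47% and 0.469% of all genes. The medians were -0.18 with metatherian and -0.15 with eutherian CRX. The genes lower than control with metatherian CRX in this fit were *Hspa5*, *Herpud1*, *Atf4*, *Mthfd2*, *Slc7a5*, *Trib3*, *Chac1*, *Sesn2* and *Ppp1r15a*, and *Nupr1* and *Phgdh* were higher. Those lower with eutherian CRX were *Slc7a5*, *Chac1*, *Ppp1r15a* and *Nupr1*.

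The ER chaperones and folding enzymes differed widely in level. Per length of exon, the mean level in control was 970 FPKM for *Calr* (calreticulin, a lectin chaperone), 690 for *Pdia3* (a disulphide isomerase of glycoproteins), 682 for *Hsp90b1* (the HSP90 of the ER) and 625 for *Hspa5* (BiP, the HSP70 of the ER), whereas *Sdf2l1*, a partner of BiP, had 8.97 FPKM. None of the 14 passed the edgeR test in either comparison with control, also at an unadjusted p under 0.05, where 10.5% of all genes were lower and 9.04% higher with metatherian CRX and 6.34% and 2.23% with eutherian CRX. DESeq2 called 0 of them in either, against 9.94% of all genes with metatherian and 3.30% with eutherian CRX. Log2 fold changes ran from -0.37 to 0.21 with metatherian CRX, with a median of -0.23, and from -0.40 to 0.08 with eutherian CRX, with a median of -0.18.

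*Hspa5* (chr2:34772090-34776529) was at 2089, 1720 and 1247 CPM in the control libraries, at 2127, 1893 and 876 CPM in those with eutherian CRX and at 1668, 1354 and 1142 CPM in those with metatherian CRX. In each condition replicate 1 was highest and replicate 3 lowest, and the conditions overlapped. The log2 fold change was -0.26 (SE 0.18, adjusted p = 0.475) with metatherian CRX and -0.10 (SE 0.18, adjusted p = 0.944) with eutherian CRX. Without the libraries numbered 3, these became -0.34 (SE 0.10, adjusted p = 0.0467) and 0.08 (SE 0.10, adjusted p = 0.745).

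*Hsp90b1* and *Calr*, which were also abundant, had the low value of eutherian CRX replicate 3 too. *Hsp90b1* was at 2201, 1812 and 1799 CPM in the control libraries, at 1781, 1679 and 1020 CPM in those with eutherian CRX and at 1728, 1444 and 1490 CPM in those with metatherian CRX, all 6 CRX libraries lying below control. *Calr* likewise lay at 1866 to 1996 CPM in control and below that in every CRX library, with 1055 CPM in eutherian CRX replicate 3 and 1352 to 1839 CPM in the other 5. The adjusted p in the 4 comparisons of *Hsp90b1* and *Calr* with control was between 0.318 and 0.614. Leaving out the libraries numbered 3, the log2 fold changes were -0.34 with metatherian and -0.21 with eutherian CRX for *Hsp90b1* and -0.26 and -0.15 for *Calr*, from -0.31 and -0.40 and from -0.34 and -0.37 with all 9. *Canx* (calnexin, the membrane-bound lectin chaperone) went the other way with metatherian CRX, at 1501, 1339 and 1521 CPM against 1210 to 1332 CPM in control. Its log2 fold change was 0.21 (SE 0.11, adjusted p = 0.343), or 0.15 without the libraries numbered 3. With eutherian CRX it was at 1254, 1247 and 1188 CPM, replicate 3 lying just below control. *Hyou1*, another ER chaperone, was at 330 CPM in eutherian CRX replicate 3, within its control range of 320 to 335 CPM.

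As a list, the median log2 level of the 14 chaperones against the control mean was 0.07, 0.00 and -0.74 in the 3 eutherian CRX libraries and -0.03, -0.22 and -0.36 in the 3 metatherian CRX libraries, with 0.10, 0.02 and -0.08 in control. The level with eutherian CRX was thus within the control range in replicates 1 and 2, and far below it in replicate 3. With the libraries numbered 3 left out the list's median log2 fold change was -0.01 with eutherian and -0.21 with metatherian CRX, and *Hspa5* was the only one of the 14 that passed in either comparison with control, lower with metatherian CRX, where 11.1% of all genes were lower and 11.0% higher. With eutherian CRX, where 0 of the 14 passed, these shares were 2.47% and 0.469%. The call of *Hspa5* with metatherian CRX was a narrow one (adjusted p = 0.0467). *Hsp90b1* at -0.34 (adjusted p = 0.0520) and *Pdia6* at -0.30 (adjusted p = 0.0540) fell just short in the same fit. The summed chaperone level was 6877 CPM in eutherian CRX replicate 3, whose fibroblast markers were also low, and 9012 to 11879 CPM in the other 8 libraries.

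**Figure D2:**
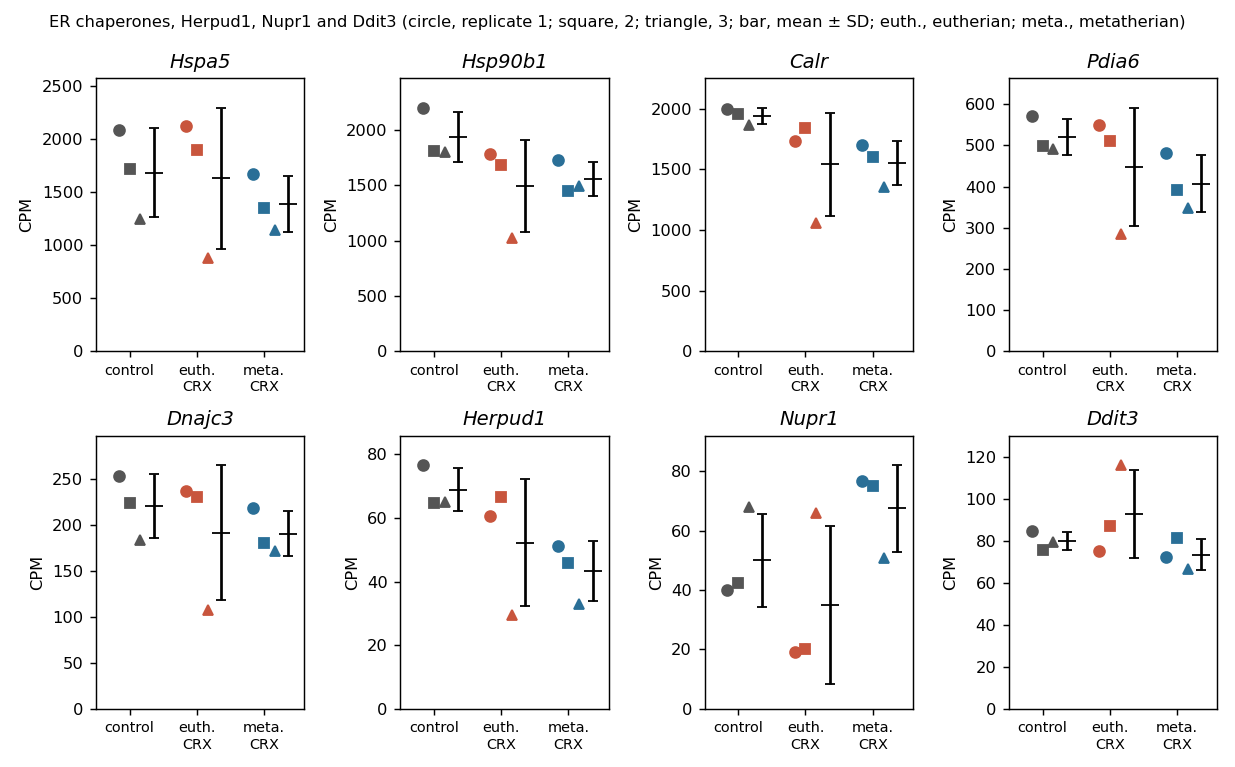
CPM of 5 chaperones and folding enzymes, *Herpud1*, *Nupr1* and *Ddit3* in each library, on axes that start at 0, with the mean and SD of 3 libraries beside the points. The triangle (replicate 3) is the lowest eutherian CRX point in the 5 chaperones and *Herpud1*, and the highest in *Nupr1* and *Ddit3*.

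Of the 3 genes of ER-associated degradation, *Herpud1* (chr8:94386143-94395366), whose membrane protein takes part in handing misfolded proteins to the degradation machinery, was the lowest with metatherian CRX. It was at 76.6, 64.8 and 65.1 CPM in the control libraries, at 60.7, 66.5 and 29.4 CPM in those with eutherian CRX and at 51.1, 45.8 and 33.0 CPM in those with metatherian CRX. All metatherian CRX libraries lay below control, whereas eutherian CRX replicate 2 lay within the control range. Its log2 fold change was -0.71 (SE 0.21, adjusted p = 0.148) with metatherian CRX and -0.48 (SE 0.21, adjusted p = 0.599) with eutherian CRX, and without the libraries numbered 3 it was -0.54 (SE 0.11, adjusted p = 0.0123) and -0.15 (SE 0.11, adjusted p = 0.538). *Edem1*, a lectin of the same process, and *Sel1l*, the adaptor of the ubiquitin ligase, had log2 fold changes between -0.18 and 0.07 in both comparisons.

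None of the 3 sensor genes passed the edgeR test in either comparison with control, and of the 3 only *Atf6*, with eutherian CRX, was lower at an unadjusted p under 0.05, against 6.34% of all genes. The shares of all genes that passed were 0.0297% with metatherian and 0.604% with eutherian CRX. *Eif2ak3* was at 71.0 to 81.3 CPM in the control libraries, at 59.1 to 88.7 CPM in those with eutherian CRX and at 71.5 to 78.3 CPM in those with metatherian CRX. *Ern1* was at 22.7 to 29.2 CPM in control and reached 44.4 CPM in eutherian CRX replicate 3 and 38.7 CPM in metatherian CRX replicate 3, with overlap between conditions. *Atf6* (chr1:170704457-170867771) was at 115, 120 and 88.5 CPM in the control libraries, at 99.9, 95.2 and 78.8 CPM in those with eutherian CRX and at 118, 110 and 105 CPM in those with metatherian CRX. All metatherian CRX libraries had more *Atf6* than all eutherian CRX libraries, while each overlapped control. The log2 fold change of *Atf6* was 0.05 (SE 0.10, adjusted p = 0.796) with metatherian CRX and -0.24 (SE 0.10, adjusted p = 0.573) with eutherian CRX. That with metatherian CRX was near 0 and turned to -0.05 without the libraries numbered 3.

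*Xbp1* was at 92.8, 83.8 and 93.7 CPM in the control libraries, at 91.9, 79.1 and 57.1 CPM in those with eutherian CRX and at 90.5, 71.4 and 74.3 CPM in those with metatherian CRX. The conditions overlapped, and the log2 fold changes of -0.21 (SE 0.15, adjusted p = 0.481) and -0.27 (SE 0.15, adjusted p = 0.723) with metatherian and eutherian CRX did not pass. They became -0.14 and -0.05 without the libraries numbered 3. These are totals of all transcripts, and the spliced form was not counted apart. *Dnajb9*, a BiP co-chaperone known as a target of XBP1, was at 58.6, 53.7 and 43.7 CPM in the control libraries, at 47.2, 50.4 and 40.4 CPM in those with eutherian CRX and at 59.7, 56.4 and 51.0 CPM in those with metatherian CRX. Both CRX conditions overlapped control, with log2 fold changes of 0.10 (SE 0.10, adjusted p = 0.585) with metatherian and -0.17 (SE 0.10, adjusted p = 0.719) with eutherian CRX, and of 0.05 and -0.21 without the libraries numbered 3.

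*Atf4* (chr15:80255184-80257545), the transcription factor at the centre of the amino acid response, was lower than control in all 6 CRX libraries. It was at 252, 264 and 218 CPM in the control libraries, at 195, 203 and 183 CPM in those with eutherian CRX and at 192, 187 and 167 CPM in those with metatherian CRX. The lowest control library lay above the highest CRX library. In edgeR the log2 fold change was -0.43 (SE 0.09, adjusted p = 0.0948) with metatherian CRX and -0.33 (SE 0.09, adjusted p = 0.293) with eutherian CRX, which did not pass. Without the libraries numbered 3 it was -0.45 (SE 0.08, adjusted p = 0.00796) and -0.38 (SE 0.08, adjusted p = 0.0543), so that the size of the difference did not rest on those libraries.

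*Ddit3*, which encodes the pro-apoptotic factor CHOP downstream of ATF4, was at 84.4, 75.7 and 79.4 CPM in the control libraries, at 75.1, 86.8 and 116 CPM in those with eutherian CRX and at 72.1, 81.1 and 66.6 CPM in those with metatherian CRX. Only eutherian CRX replicate 3 stood out, and it was high. The log2 fold changes were -0.12 (SE 0.17, adjusted p = 0.718) with metatherian and 0.20 (SE 0.17, adjusted p = 0.821) with eutherian CRX, and the latter was -0.02 without eutherian CRX replicate 3.

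*Slc7a5* (chr8:121881146-121907686), the LAT1 transporter of large neutral amino acids, showed the difference most clear of the library spread. It was at 52.4, 49.3 and 53.2 CPM in the control libraries, at 27.9, 29.5 and 34.7 CPM in those with eutherian CRX and at 32.0, 32.6 and 31.1 CPM in those with metatherian CRX. The mean was 51.6 ± 2.07 CPM (SD, n = 3) for control, 30.7 ± 3.55 CPM for eutherian and 31.9 ± 0.771 CPM for metatherian CRX, and the gap between the lowest control and the highest CRX library was wider than the range within any condition. The log2 fold change was -0.75 (SE 0.11, adjusted p = 0.0457) with eutherian CRX and -0.69 (SE 0.11, adjusted p = 0.0722) with metatherian CRX. The call with eutherian CRX stood near its threshold, with an adjusted p of 0.0745 without the replicate block and 0.108 with only the 6 libraries compared, and the edgeR test with any 1 of the 9 libraries left out kept it only without metatherian CRX replicate 3. The log2 fold change itself stayed between -0.84 and -0.68 when each library was left out. With the libraries numbered 3 left out it was -0.83 (SE 0.09, adjusted p = 0.009) with eutherian and -0.66 (SE 0.09, adjusted p = 0.0033) with metatherian CRX.

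The partner of *Slc7a5* in the transporter dimer, *Slc3a2*, overlapped control with either CRX, at 188 to 203 CPM in the control libraries, at 178 to 219 CPM in those with eutherian CRX and at 158 to 206 CPM in those with metatherian CRX. Its log2 fold changes were -0.01 (SE 0.14, adjusted p = 0.999) with eutherian and -0.09 (SE 0.14, adjusted p = 0.759) with metatherian CRX. *Slc7a11*, the cystine and glutamate exchanger, was at 22.0, 18.0 and 4.72 CPM in the control libraries, at 12.5, 13.6 and 7.73 CPM in those with eutherian CRX and at 17.2, 18.1 and 8.87 CPM in those with metatherian CRX. Replicate 3 was the lowest in each condition, and in the fit without these libraries, where the gene was tested, its log2 fold change was -0.61 (SE 0.13, adjusted p = 0.0637) with eutherian and -0.18 (SE 0.13, adjusted p = 0.378) with metatherian CRX.

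**Figure D3:**
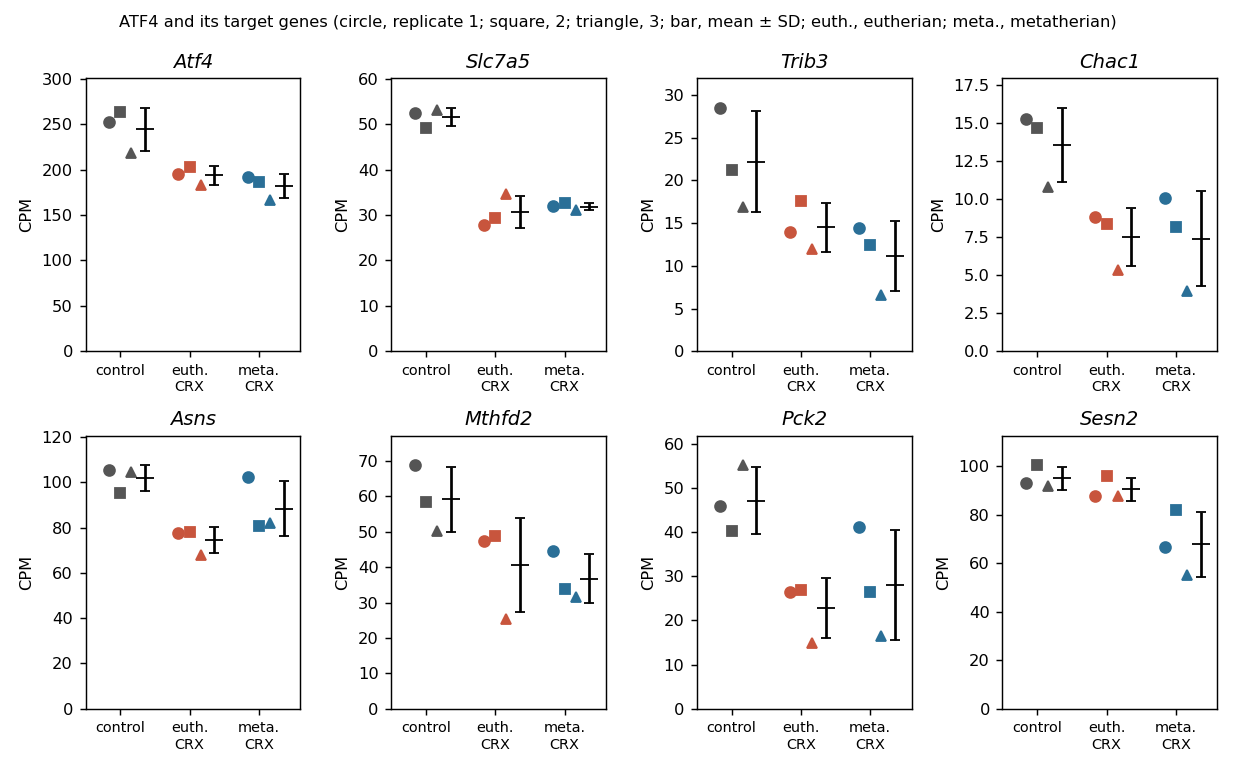
CPM of *Atf4* and 7 of its known target genes in each library, on axes that start at 0, with the mean and SD of 3 libraries beside the points. The CRX libraries lie below control without overlap for *Atf4*, *Slc7a5*, *Chac1* and *Mthfd2*, for *Trib3* and *Sesn2* with metatherian CRX only and for *Asns* and *Pck2* with eutherian CRX only.

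The 7 enzymes of amino acid and one-carbon metabolism had negative log2 fold changes in all 7 cases with eutherian CRX (median -0.45) and in 6 with metatherian CRX (median -0.41). None passed in edgeR, where 0.0297% of all genes passed with metatherian and 0.604% with eutherian CRX, while DESeq2 called *Mthfd2* with metatherian CRX, against 9.94% of all genes, and *Asns* and *Pck2* with eutherian CRX, against 3.30%. *Mthfd2*, a mitochondrial enzyme of folate metabolism, was at 68.8, 58.3 and 50.4 CPM in the control libraries, at 47.5, 48.9 and 25.3 CPM in those with eutherian CRX and at 44.7, 33.9 and 31.7 CPM in those with metatherian CRX. All 6 CRX libraries lay below control, although the highest of them came within 2 CPM of the lowest control. Its log2 fold change was -0.69 (SE 0.17, adjusted p = 0.115) with metatherian and -0.58 (SE 0.17, adjusted p = 0.358) with eutherian CRX, and -0.70 (SE 0.12, adjusted p = 0.00677) and -0.40 (SE 0.11, adjusted p = 0.143) without the libraries numbered 3.

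*Pck2*, the mitochondrial PEP carboxykinase, was at 46.0, 40.2 and 55.2 CPM in the control libraries, at 26.6, 26.9 and 15.0 CPM in those with eutherian CRX and at 41.3, 26.5 and 16.5 CPM in those with metatherian CRX. All eutherian CRX libraries lay below control, whereas metatherian CRX replicate 1 lay within it. In edgeR the log2 fold change was -1.12 (SE 0.31, adjusted p = 0.317) with eutherian and -0.86 (SE 0.31, adjusted p = 0.208) with metatherian CRX, and -0.69 (SE 0.15, adjusted p = 0.0717) and -0.37 (SE 0.15, adjusted p = 0.131) without the libraries numbered 3.

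*Asns*, asparagine synthetase, was at 106, 95.1 and 105 CPM in the control libraries, at 77.7, 77.9 and 68.1 CPM in those with eutherian CRX and at 103, 80.7 and 81.9 CPM in those with metatherian CRX. Here the eutherian CRX libraries lay below control and below every metatherian CRX library. The log2 fold change was -0.45 (SE 0.11, adjusted p = 0.201) with eutherian and -0.21 (SE 0.11, adjusted p = 0.328) with metatherian CRX, and -0.37 and -0.14 without the libraries numbered 3. *Aldh18a1*, which begins proline synthesis, was at 105, 95.1 and 131 CPM in the control libraries, at 92.2, 82.3 and 56.8 CPM in those with eutherian CRX and at 103, 85.6 and 66.5 CPM in those with metatherian CRX. All 3 of its eutherian CRX libraries lay below control, replicate 1 only just, and the log2 fold changes of -0.55 (SE 0.22, adjusted p = 0.551) with eutherian and -0.41 (SE 0.22, adjusted p = 0.354) with metatherian CRX became -0.20 and -0.08 without the libraries numbered 3.

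*Phgdh*, *Psat1* and *Shmt2*, which make serine and glycine, had log2 fold changes from -0.39 to -0.23 with eutherian CRX and from -0.42 to 0.23 with metatherian CRX, with adjusted p of 0.308 or above. *Phgdh* was at 15.7 to 19.0 CPM in control, and with metatherian CRX at 24.2 and 28.9 CPM in replicates 1 and 2 but 11.3 CPM in replicate 3. Without the libraries numbered 3 its log2 fold change with metatherian CRX was 0.63 (SE 0.16, adjusted p = 0.0347).

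Among the stress effectors, *Trib3* (chr2:152337425-152344060), a pseudokinase that restrains ATF4 and AKT signalling, was at 28.5, 21.2 and 16.9 CPM in the control libraries, at 14.0, 17.6 and 12.0 CPM in those with eutherian CRX and at 14.5, 12.4 and 6.55 CPM in those with metatherian CRX. All metatherian CRX libraries lay below control, and eutherian CRX replicate 2 lay within it. Its log2 fold change was -1.03 (SE 0.20, adjusted p = 0.085) with metatherian and -0.59 (SE 0.20, adjusted p = 0.454) with eutherian CRX, and -0.88 (SE 0.18, adjusted p = 0.0144) and -0.64 (SE 0.18, adjusted p = 0.129) without the libraries numbered 3.

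*Chac1* (chr2:119351242-119354326), which degrades glutathione, was at 15.3, 14.6 and 10.8 CPM in the control libraries, at 8.81, 8.36 and 5.32 CPM in those with eutherian CRX and at 10.1, 8.17 and 3.93 CPM in those with metatherian CRX. All 6 CRX libraries lay below control. In edgeR the log2 fold change was -0.95 (SE 0.19, adjusted p = 0.0869) with metatherian and -0.88 (SE 0.19, adjusted p = 0.151) with eutherian CRX, and without the libraries numbered 3 it was -0.72 (SE 0.12, adjusted p = 0.00796) and -0.81 (SE 0.12, adjusted p = 0.0267).

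*Sesn2* (chr4:132492804-132510456), whose protein restrains mTORC1 signalling when leucine is short, was at 92.9, 101 and 91.8 CPM in the control libraries, at 87.8, 96.0 and 87.6 CPM in those with eutherian CRX and at 66.5, 81.9 and 55.2 CPM in those with metatherian CRX. The metatherian CRX libraries lay below all 6 others, and eutherian CRX overlapped control. The log2 fold change was -0.50 (SE 0.11, adjusted p = 0.102) with metatherian and -0.07 (SE 0.11, adjusted p = 0.924) with eutherian CRX. With the libraries numbered 3 left out it was -0.39 (SE 0.08, adjusted p = 0.0154) and -0.08 (SE 0.08, adjusted p = 0.687).

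*Ppp1r15a*, which encodes the GADD34 subunit that leads phosphatase to eIF2alpha, was at 57.3, 65.9 and 39.9 CPM in the control libraries, at 44.3, 44.8 and 37.3 CPM in those with eutherian CRX and at 45.5, 49.6 and 30.2 CPM in those with metatherian CRX. Replicate 3 was lowest in every condition and the conditions overlapped. The log2 fold changes of -0.38 (SE 0.12, adjusted p = 0.165) with metatherian and -0.34 (SE 0.12, adjusted p = 0.489) with eutherian CRX became -0.37 (SE 0.08, adjusted p = 0.0203) and -0.47 (SE 0.08, adjusted p = 0.0387) without the libraries numbered 3. *Vldlr*, a lipoprotein receptor that ATF4 is known to activate, was at 61.6, 52.2 and 44.2 CPM in the control libraries, at 47.4, 48.5 and 19.8 CPM in those with eutherian CRX and at 53.8, 41.2 and 32.0 CPM in those with metatherian CRX. It overlapped control in both conditions, with log2 fold changes of -0.34 (SE 0.20, adjusted p = 0.401) with metatherian and -0.53 (SE 0.20, adjusted p = 0.542) with eutherian CRX. These became -0.27 and -0.24 without the libraries numbered 3.

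*Nupr1* (chr7:126623246-126625470), a small chromatin-associated stress protein, split by replicate number. It was at 39.9, 42.2 and 68.1 CPM in the control libraries, at 19.3, 20.1 and 65.9 CPM in those with eutherian CRX and at 76.8, 75.1 and 50.7 CPM in those with metatherian CRX. In replicates 1 and 2 the eutherian CRX libraries lay below and the metatherian CRX libraries above control, while in replicate 3 control and eutherian CRX were close together and metatherian CRX was lower. Across all 9 libraries the log2 fold change was 0.57 (SE 0.43, adjusted p = 0.505) with metatherian and -0.64 (SE 0.43, adjusted p = 0.774) with eutherian CRX, and without the libraries numbered 3 it was 0.89 (SE 0.08, adjusted p = 0.00082) and -1.07 (SE 0.08, adjusted p = 0.00641).

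**Figure D4:**
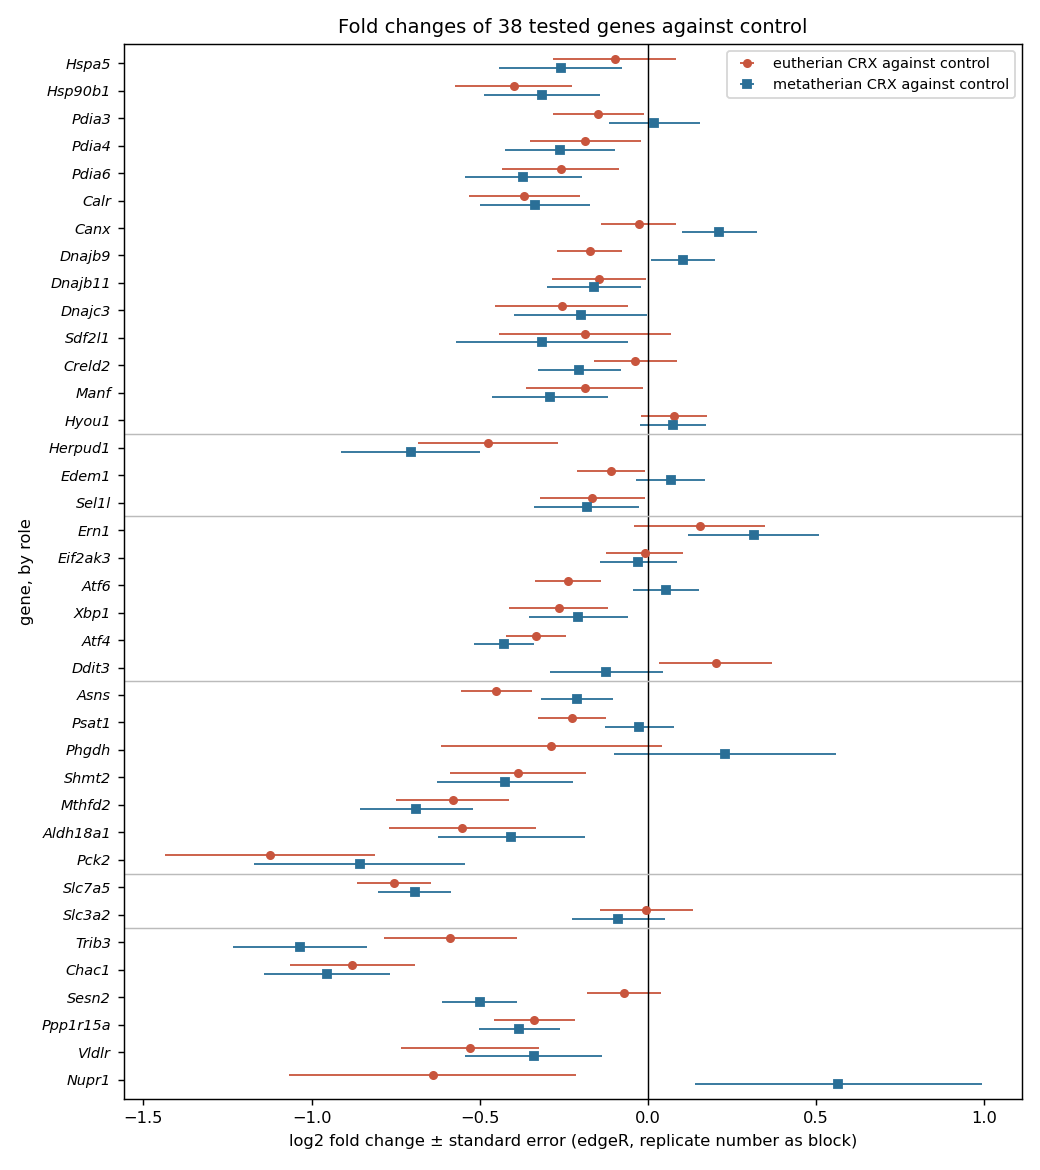
Log2 fold change against control with its standard error for the 38 genes tested (edgeR, 9 libraries), in rows grouped by role, for eutherian CRX (circles) and metatherian CRX (squares). The chaperones lie between -0.40 and 0.21, and *Pck2*, *Trib3* and *Chac1* lie farthest to the left.

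The CRX conditions were also compared with each other. The median log2 fold change of the 38 genes, metatherian against eutherian CRX, was -0.01, the same as over all genes tested, and edgeR called 0 of the 38, as it did 0% of all genes, while DESeq2 called 0 of the 38 and 3.14% of all genes. At an unadjusted p under 0.05, 3 were higher with metatherian CRX (*Dnajb9*, *Atf6* and *Nupr1*), against 7.41% of all genes, and 1, *Sesn2*, was lower, against 4.13%. The log2 differences were 0.28 (SE 0.10, adjusted p = 0.359) for *Dnajb9*, 0.29 (SE 0.10, adjusted p = 0.351) for *Atf6*, 1.21 (SE 0.44, adjusted p = 0.378) for *Nupr1* and -0.43 (SE 0.11, adjusted p = 0.284) for *Sesn2*. The counts moved with single libraries. Without eutherian CRX replicate 3, 7 genes were lower at an unadjusted p under 0.05, against 8.88% of all genes, and without eutherian CRX replicate 1, 3 were lower, against 1.32%, and 0 higher, against 3.05%. Without metatherian CRX replicate 1, 0 were higher, against 2.56% of all genes. Higher genes numbered 5 without control replicate 3, against 10.1% of all genes, and 5 without metatherian CRX replicate 3, against 12.4%.

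Without the libraries numbered 3, 2 of the 39 genes were higher with metatherian than with eutherian CRX at an adjusted p under 0.05, against 12.7% of all genes, and 4 were lower, against 9.86%. The higher genes were *Nupr1*, with a log2 difference of 1.95 (SE 0.08, adjusted p = 0.000215), and *Phgdh*, with 0.96 (SE 0.16, adjusted p = 0.0083). The lower genes were *Hspa5* at -0.41 (SE 0.10, adjusted p = 0.0232), *Herpud1* at -0.39 (SE 0.11, adjusted p = 0.0393), *Sesn2* at -0.31 (SE 0.08, adjusted p = 0.0344) and *Manf*, a secreted ER stress factor, at -0.29 (SE 0.07, adjusted p = 0.0346). *Nupr1* also passed with all libraries but eutherian CRX replicate 3 (adjusted p = 0.041) or metatherian CRX replicate 3 (adjusted p = 0.0417).

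**Figure D5:**
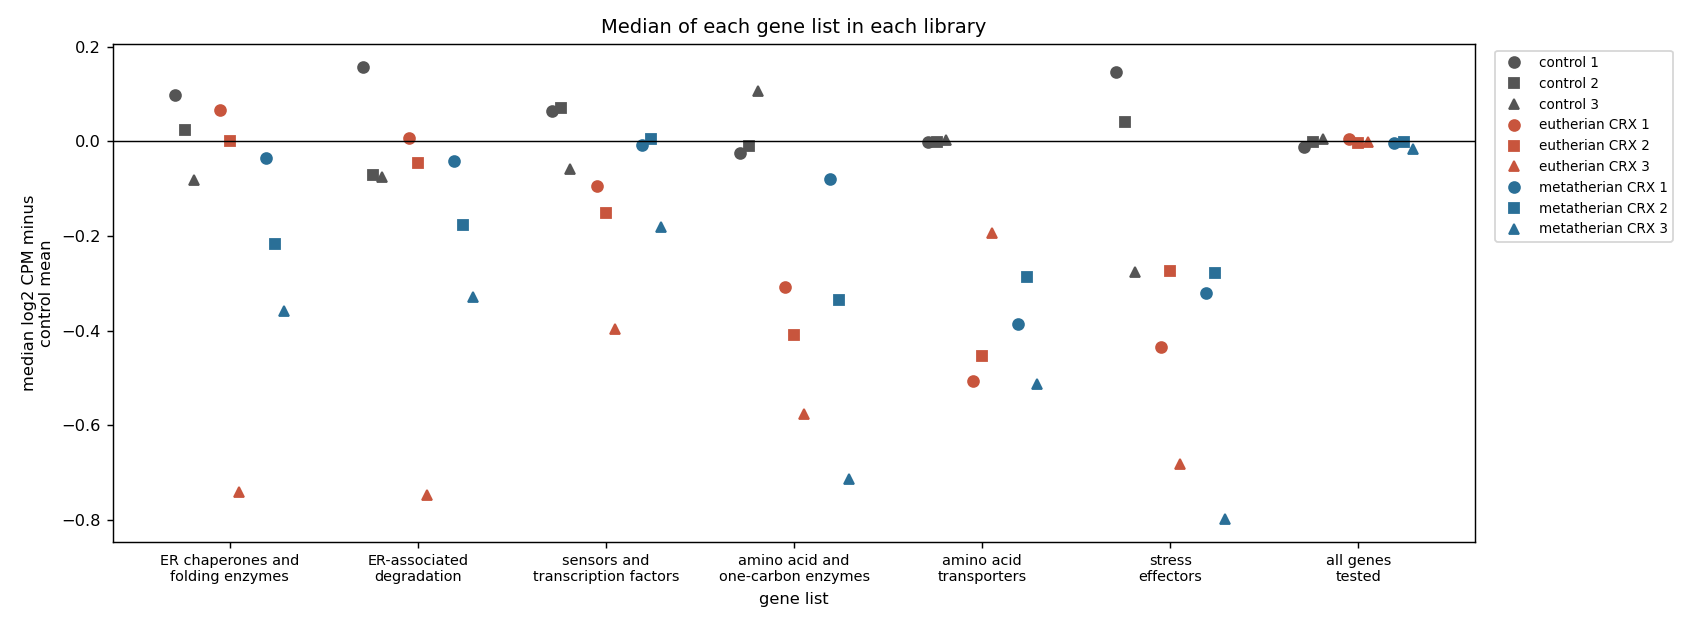
Median over each list of the log2 CPM minus the control mean, for each of the 9 libraries, with all 10100 genes tested at the right. The chaperone median is -0.74 in eutherian CRX replicate 3 and 0.07 and 0.00 in replicates 1 and 2, while the median of the enzymes lies below all control libraries in all 6 CRX libraries.

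The lists differed in how they varied among libraries. The median of the amino acid enzymes was -0.31, -0.41 and -0.58 in the eutherian CRX libraries and -0.08, -0.33 and -0.71 in the metatherian CRX libraries, below the -0.02 to 0.11 of control in each case. That of the stress effectors was -0.44, -0.27 and -0.68 with eutherian CRX and -0.32, -0.28 and -0.80 with metatherian CRX, against 0.15, 0.04 and -0.28 in control, where replicate 3 was low as well. The degradation genes, like the chaperones, were near control in eutherian CRX replicates 1 and 2 (0.01 and -0.05) and low in replicate 3 (-0.75).

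Other genes of these pathways that are not among the 39 were tested in the same fit, where at an unadjusted p under 0.05 the shares of all genes were 10.5% lower and 9.04% higher with metatherian CRX and 6.34% and 2.23% with eutherian CRX. Of 46 other genes of ER folding, translocation and degradation tested, 0 passed edgeR in either comparison with control, and at an unadjusted p under 0.05, 8 were lower and 2 higher with metatherian CRX (median log2 fold change -0.14) and 2 lower and 0 higher with eutherian CRX (median -0.14). Of 40 other genes of the ATF4 and eIF2alpha pathway, 0 passed, 9 were lower and 1 higher with metatherian CRX (median -0.14) and 11 lower and 0 higher with eutherian CRX (median -0.25). Of 11 cytosolic and mitochondrial heat shock genes, which respond to unfolded protein outside the ER, 0 passed, 0 were lower and 2 higher with metatherian CRX (median 0.15) and 0 were lower or higher at that level with eutherian CRX (median 0.05). In the fit without the libraries numbered 3, 6 of the 46 other ER genes, 8 of the 40 other ATF4 and eIF2alpha genes and 0 of the 11 heat shock genes were lower at an adjusted p under 0.05 with metatherian CRX, against 11.1% of all genes, and 3, 1 and 1 were higher, against 11.0%. With eutherian CRX 0, 3 and 0 were lower, against 2.47%, and 0 of these genes were higher, against 0.469%.

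With metatherian CRX the genes of these lists with the lowest log2 fold changes at an unadjusted p under 0.05 were *Jdp2*, a repressor related to ATF3, at -1.31 (SE 0.32, adjusted p = 0.116), *Gdf15*, a secreted stress hormone, at -1.27 (SE 0.53, adjusted p = 0.254) and *Aldh1l2*, a mitochondrial folate enzyme, at -0.72 (SE 0.27, adjusted p = 0.216). Those with the highest were *Eif2ak2*, the eIF2alpha kinase that senses double-stranded RNA, at 0.57 (SE 0.16, adjusted p = 0.132), *Spcs3*, a subunit of the signal peptidase, at 0.47 (SE 0.12, adjusted p = 0.12) and *Hspd1*, the mitochondrial HSP60, at 0.38 (SE 0.11, adjusted p = 0.146). With eutherian CRX the lowest were *Aldh1l2* at -1.02 (SE 0.27, adjusted p = 0.294), *Pycr1*, of proline synthesis, at -0.75 (SE 0.30, adjusted p = 0.552) and *Bcat1*, which transaminates branched-chain amino acids, at -0.75 (SE 0.17, adjusted p = 0.191). In the fit without the libraries numbered 3, *Jdp2* at -1.01, *Aldh1l2* at -0.45, *Eif2ak2* at 0.82, *Spcs3* at 0.50 and *Hspd1* at 0.29 passed with metatherian CRX (adjusted p between 0.000396 and 0.0487) and *Gdf15* at -0.88 did not (adjusted p = 0.0745). With eutherian CRX *Bcat1* at -0.49 then passed (adjusted p = 0.0391), while *Aldh1l2* at -0.58 (adjusted p = 0.0717) and *Pycr1* at -0.32 (adjusted p = 0.315) did not.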

How the data were processed

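RNA-seq libraries of control, eutherian CRX and metatherian CRX MEFs were analysed, 3 per condition. The authors aligned reads with STAR to mm10 and deposited raw counts per gene from featureCounts, neither normalized nor pooled. The annotation release, strand setting and handling of multiply aligned reads are not given in the sources used here.

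Counts were tested with edgeR 4.0.16 in R 4.3.3 (glmQLFit and glmQLFTest, TMM factors, replicate number as a block, all 9 libraries). Of 22068 genes, 3756 had no count and 2 names were listed a second time. The 14599 genes that passed filterByExpr were reduced to the 10100 whose mean exceeded 2 FPKM in 1 or more conditions, and p-values were adjusted by the Benjamini-Hochberg method over these. FPKM used summed exon lengths. The standard error of a log2 fold change is its size over the root of F, and log2 CPM used a prior count of 2. Alternatives were no block, upper-quartile and relative-log-expression scaling, DESeq2 1.42.0, weaker filters, only the 6 libraries compared, each library left out, and the libraries numbered 3 left out. The main fit, the fit without the block, both other scalings and DESeq2 were run on simulated counts for metatherian CRX against control. Those counts held no replicate effect and no deviant libraries, so they do not show how the fits behave with libraries like those numbered 3. Replicate libraries differed by more than sampling noise (chi-square per degree of freedom 22.0 to 801). All 9 columns were used.

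The 39 genes and the other lists were chosen with earlier results of these data known. Values per library are given for genes with an unadjusted p under 0.05 in any comparison and, whatever their p, for 9 genes that the rule lists by name, some of which also met that level (*Hspa5*, *Xbp1*, *Atf4*, *Ddit3*, *Trib3*, *Chac1*, *Asns*, *Slc7a11* and *Sesn2*). *Hsp90b1*, *Calr*, *Canx*, *Ern1*, *Eif2ak3*, *Slc3a2*, *Phgdh* and *Manf* were added after their values were seen. Gene coordinates are the exon spans of the deposited count table (mm10), and promoter windows are from RefSeq (GRCm38.p6).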

Additional observations from a re-analysis of the deposited data

How the results depend on the processing

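The number of the 38 genes that passed moved with the tool, the block and the libraries used, and was the same under both other scalings and both other filters. With metatherian CRX, the 0 of 38 genes that passed became 7 by DESeq2, 3 with only the 6 libraries compared, 11 without the libraries numbered 3, and 0 to 7 with 1 library left out. With eutherian CRX, 1 became 0 without the replicate block and with only the 6 libraries compared, 5 by DESeq2, 4 without the libraries numbered 3, and 0 to 2 with 1 library left out. Between the CRX conditions, 0 became 6 without the libraries numbered 3 and 0 to 1 with 1 library left out. Over all genes, 3 calls with metatherian CRX became 0 without the replicate block, 1004 by DESeq2, 398 with only the 6 libraries compared, 2221 without the libraries numbered 3 and 0 to 893 with 1 left out; 61 with eutherian CRX became 0, 333, 0, 295 and 0 to 117, and 109 with no filter beyond 1 count; and 0 between the CRX conditions became 317 by DESeq2, 2258 without the libraries numbered 3 and 0 to 351.

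At an unadjusted p under 0.05, the 0 genes higher with metatherian CRX became 1 by DESeq2 (10.6% of all genes) and 1 with only the 6 libraries compared (8.75%). They became 2 without the libraries numbered 3 (17.4%) and 0 to 2 with 1 left out (4.19% to 12.7%). The 9 lower became 14 with only the 6 libraries compared (11.7% of all genes), 19 without the libraries numbered 3 (18.8%) and 7 to 16 with 1 left out (5.92% to 14.0%). The 11 lower with eutherian CRX became 6 without the replicate block (4.55% of all genes) and 5 to 15 with 1 left out (4.17% to 8.76%). Between the CRX conditions, 3 higher became 0 without the block (3.86%), 8 without the libraries numbered 3 (19.6%) and 0 to 5 with 1 left out (2.56% to 12.4%). The 1 lower became 2 with upper-quartile scaling (5.68%), 11 without the libraries numbered 3 (17.7%) and 1 to 7 with 1 left out (1.32% to 8.88%). With 1 left out, the median ranged from -0.30 to -0.11 with metatherian CRX, from -0.31 to -0.15 with eutherian CRX and from -0.058 to 0.083 between the CRX conditions, and the cause of these changes was not tested.

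Some values changed sign, and none of them passed under the setting that turned it. Without the libraries numbered 3, 2 of the 38 genes changed sign with metatherian CRX, 8 with eutherian CRX and 10 between the CRX conditions. Among them, *Atf6* with metatherian CRX was -0.046, and with eutherian CRX *Hspa5* was 0.078, *Manf* 0.071, *Sel1l* 0.018, *Eif2ak3* 0.11 and *Ern1* -0.15. *Slc3a2* with eutherian CRX was 0.0045 with upper-quartile scaling, 0.013 with filterByExpr alone and 0.018 with no filter beyond 1 count. With 1 library left out, values with metatherian CRX ranged from -0.027 to 0.13 for *Atf6*, -0.23 to 0.018 for *Ddit3*, -0.10 to 0.65 for *Phgdh* and -0.18 to 0.044 for *Slc3a2*. Those with eutherian CRX ranged from -0.25 to 0.12 for *Hspa5*, -0.015 to 0.36 for *Ddit3*, -0.079 to 0.0057 for *Canx* and -0.17 to 0.096 for *Slc3a2*, and those of *Manf* between the CRX conditions from -0.32 to 0.030.

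The replicate block was used because the study prepared its samples in pairs, without naming the libraries of a pair. Deviations of libraries with the same number correlated above 0.1 in 8 of 9 pairs (0.00339 to 0.749) and those of libraries with different numbers in 5 of 18 (at most 0.722), and the numbers therefore do not establish a pairing. The eutherian CRX library that correlated best with control replicate 1 was replicate 2. Each condition had 3 libraries, and the 39 genes had at least 259 counts in every library.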
